A study of Mus musculus with 10 samples.

Results

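The genes described here are 38 glutamate receptor subunits and postsynaptic partners of the mouse. They were chosen by gene family, with no measured value in the rule but with earlier results of these data known. Shares called among them are therefore not those of a list picked blind to the data. All 38 were found among the 55536 mouse genes counted in every library. They are 4 AMPA receptor subunits, 6 NMDA receptor subunits, 5 kainate receptor subunits, 2 genes of the delta receptor group, 6 metabotropic receptors, 6 auxiliary subunits, 3 cerebellins and 6 postsynaptic scaffolds. RNA came from the cerebellum (CB) and the cerebral cortex (CX) of 5 C57BL/6J mice at 1 year of age, and each mouse gave both tissues. Knockout (KO) mice, 2 in number, were homozygous for a frameshift deletion in Snx14, a sorting nexin with a role in lipid droplet and endoplasmic reticulum biology. The 3 controls were 2 heterozygous mice (Het, controls 1 and 2) and 1 wild-type mouse (WT, control 3), so most controls also carried a mutant copy. All mutant animals descend from a single mutant line, and the mutation is present in every cell, so effects that start in the cerebellum and effects that reach it from elsewhere cannot be told apart.

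Glutamate is the main fast excitatory transmitter of the brain. AMPA receptors carry most of the fast current, NMDA receptors pass calcium when glutamate and depolarisation coincide, and kainate receptors tune release and excitability. Metabotropic receptors signal through G proteins, and auxiliary subunits of the cornichon, Shisa and Neto families set how channels gate and travel. In the cerebellum, granule cells send parallel fibres to Purkinje cells (PCs), and cerebellins released by granule cells bridge presynaptic neurexins to delta receptors on the PC. Shank, Homer and PSD-95 proteins hold the receptors at the synapse.

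Libraries held between 16088310 and 22975355 gene counts, so 3 counts, the limit that a count of 0 allows, correspond to a counts-per-million (CPM) value of 0.131 to 0.186. These limits cover counting error only. Levels below are CPM after scaling all 10 libraries together, and levels of different genes are set side by side only as CPM per kb of exon. That length counts all annotated exonic bases of a gene, whichever transcripts were present. Orders and shares between genes therefore depend on the annotation. Snx14 was at 42.8, 39.9 and 73.3 CPM in cerebellum of controls 1 to 3 and at 15.5 and 17.4 CPM in KO 1 and KO 2. In cortex it was at 34.4, 35.0 and 50.9 CPM in controls and at 14.8 and 16.1 CPM in KO mice. The summed level of 8 granule cell markers was 2802 to 3284 CPM in cerebellum libraries and 126 to 166 CPM in cortex libraries, as the tissue labels say. Cortex control 2 stood apart from the other cortex libraries, which is described with the cortex results. Cerebellum KO 1 held 45.9 CPM of 5 choroid plexus markers, against 1188 to 3373 CPM in the other cerebellum libraries.

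In the KO cerebellum 5 glutamate receptor genes fell and none rose past the test with the filter and all libraries. With no filter on low counts, Cbln4 and Grm5 were called higher, beside 481 of 35258 genes called higher in that fit. The genes that fell were the AMPA subunit Gria1, the kainate subunit Grik1, the delta receptor partner Grid2ip, the AMPA auxiliary subunit Shisa6 and the scaffold Shank2, with levels 34.3% to 52.4% below the control mice. Called genes had an absolute log2 change over 0.5 and passed edgeR's quasi-likelihood test with a Benjamini-Hochberg adjusted p, taken over all genes, under 0.05. The 5 genes are 13.5% of the 37 that had enough counts to be tested, beside 1.55% of all tested genes. All 5 were lower, beside 1.04% of all genes called lower and 0.514% called higher. An unadjusted p under 0.05 was reached by 18 of the 37 genes, 12 lower and 6 higher, beside 13.4% of all genes. For 20 of the 37 genes the KO and control libraries did not overlap, which is 54.1%, beside 30.2% of all genes. The median log2 change was -0.07 over the 37 genes and 0.00 over all genes, so the middle of the group lay close to that of all genes. Without 1 library at a time, 1 gene was called without control 1, 2 without control 3, KO 1 or KO 2, and 6 without control 2. Cbln2 alone did not pass the filter on low counts in this tissue.

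**Figure D1:**
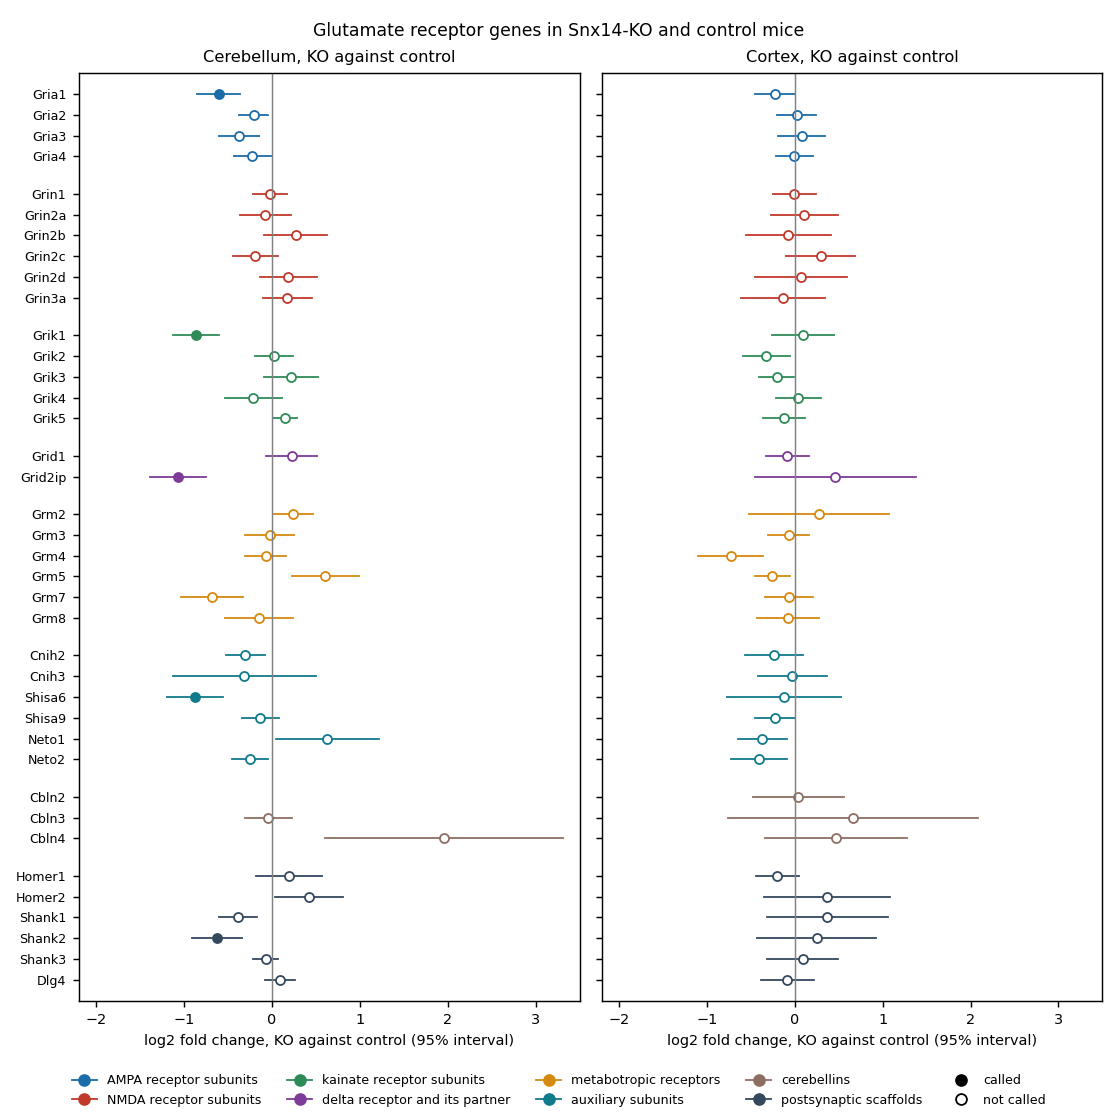
Log2 fold change of each gene in KO against control mice with its 95% interval, in cerebellum (left) and cortex (right). Colours mark the receptor class and filled points the genes called. The 5 filled points, Gria1, Grik1, Grid2ip, Shisa6 and Shank2, all lie below 0 in cerebellum, and no point is filled in cortex.

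All AMPA receptor subunits had lower values in the KO cerebellum, and Gria1 passed the test. Gria1 (ENSMUSG00000020524.16, chromosome 11, 57011387 to 57330244, plus strand of GRCm38), which encodes GluA1, was at 655, 555 and 700.3 CPM in controls 1 to 3 and at 429 and 412 CPM in KO mice. Both KO libraries lay well below the lowest control. Gria1 fell by 0.61 on the log2 scale (SE 0.107, edgeR adjusted p 0.0263). The call was lost without control 1, control 3, KO 1 or KO 2, with log2 changes of -0.63 to -0.53 and edgeR adjusted p of 0.110 to 0.130. Gria2 encodes GluA2, the subunit that keeps most AMPA channels from passing calcium. It was at 425, 404 and 424 CPM in controls and 366 and 359 CPM in KO mice. The groups did not overlap, but the log2 change of -0.21 did not pass (SE 0.070, edgeR adjusted p 0.227). Gria3, at 134 to 169.9 CPM in controls and 121 to 123 CPM in KO mice, had a log2 change of -0.38 (edgeR adjusted p 0.127). Gria4, the subunit of fast cerebellar channels, was at 537 to 602 CPM in controls and at 530.0 and 458 CPM in KO mice. Its log2 change was -0.22 (edgeR adjusted p 0.347). Thus 1 of 4 AMPA subunits was called, while for all 4 the KO libraries lay below every control.

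None of the 6 NMDA receptor subunits was called in the KO cerebellum by edgeR, and none had an unadjusted p under 0.05. Their log2 changes ran from -0.19 for Grin2c, the GluN2C subunit of mature granule cells, to 0.27 for Grin2b, the GluN2B subunit of juvenile and forebrain synapses. Grin1, the obligatory GluN1 subunit, was at 377, 328 and 361 CPM in controls and 368 and 334 CPM in KO mice, and these values interleave. Its log2 change was -0.02 with a 95% interval from -0.22 to 0.17. A part of its exonic bases, 13.5%, also lies in the antisense gene Grin1os, and counting did not use strand.

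Among kainate receptor subunits, Grik1 fell and the other 4 did not pass. Grik1 (ENSMUSG00000022935.16, chromosome 16, 87895900 to 88290265, minus strand) encodes GluK1. It was at 27.1, 23.0 and 25.03 CPM in controls and at 13.2 and 14.3 CPM in KO mice, a gap wider than the spread within either group. The KO level of Grik1 in cerebellum was thus close to its cortical level of 14.7, 11.9 and 12.3 CPM in controls. Grik1 fell by 0.87 (SE 0.115, edgeR adjusted p 0.00777), and the call was lost without control 1 (-0.81, edgeR adjusted p 0.0507) or KO 1 (-0.81, edgeR adjusted p 0.0618). Grik5, which encodes the high-affinity subunit GluK5, was at 66.6 to 68.0 CPM in controls and 73.9 and 76.1 CPM in KO mice. Its log2 change of 0.15 missed the test (edgeR adjusted p 0.329), although the groups did not overlap. Grik2, Grik3 and Grik4 had log2 changes from -0.22 to 0.21 with overlapping groups.

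Grid2ip, also called delphilin, links receptors of PC spines to the cytoskeleton, and it had the largest fall of the 37 genes tested. Grid2ip (ENSMUSG00000010825.17, chromosome 5, 143357338 to 143392152, plus strand) was at 103, 70.9 and 93.9 CPM in controls and at 43.8 and 41.6 CPM in KO mice. Even the lowest control, control 2, was above both KO libraries. The log2 change was -1.07 (SE 0.142, 95% interval -1.39 to -0.75, edgeR adjusted p 0.00777). Grid2ip was called in every fit tried for this comparison, including each fit that left out 1 library. It shares 9.52% of its exonic bases with the gene Gm20635. Grid1, which encodes GluD1, had a log2 change of 0.22 and was not called.

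Metabotropic receptors held no call, and their values went both ways. Grm7, the presynaptic group III receptor mGlu7, was at 23.6, 18.5 and 23.2 CPM in controls and at 11.98 and 15.1 CPM in KO mice, without overlap. Its log2 change was -0.69 (SE 0.154, edgeR adjusted p 0.0682), and DESeq2 called it. Grm5, the group I receptor mGlu5, is scarce in adult cerebellum. It was at 7.94, 6.76 and 7.84 CPM in controls and at 9.94 and 13.0 CPM in KO mice. Both KO libraries were above all controls, with KO 2 the higher, and the log2 change was 0.61 (SE 0.164, edgeR adjusted p 0.131). Grm4, the mGlu4 receptor of parallel fibre terminals, was at 265 to 336 CPM in controls and 292 to 298 CPM in KO mice. For Grm2, Grm3, Grm4 and Grm8 the log2 changes ran from -0.15 to 0.24.

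Of the 6 auxiliary subunits, Shisa6 fell and 5 did not pass. Shisa6 (ENSMUSG00000053930.13, chromosome 11, 66211725 to 66525964, minus strand), which slows AMPA receptor desensitisation, was at 205, 145 and 197 CPM in controls. In KO mice it was at 107 and 93.0 CPM, below all controls. It fell by 0.88 (SE 0.141, edgeR adjusted p 0.0169). The call was lost without control 1, control 3, KO 1 or KO 2, with log2 changes of -0.97 to -0.79 and edgeR adjusted p of 0.0654 to 0.107. Its relative Shisa9, also called CKAMP44, had a log2 change of -0.13 with overlapping groups. Cnih2 and Neto2 had lower values without overlap, with log2 changes of -0.30 and -0.25 that did not pass. Neto1, at 2.64 to 3.60 CPM in controls and at 3.68 and 6.13 CPM in KO mice, had a log2 change of 0.63 (edgeR adjusted p 0.333), and of 0.20 without KO 2.

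The cerebellins were not called. Cbln3 forms heteromers with cerebellin 1 in granule cells. It was at 1219.6, 1294 and 1069 CPM in controls and at 1274 and 1059.9 CPM in KO mice, so the groups interleaved (log2 change -0.04, 95% interval -0.31 to 0.23). Cbln4 was at 1.12, 0.694 and 0.712 CPM in controls, 1.04 CPM in KO 1 and 5.43 CPM in KO 2. Its log2 change of 1.96 (SE 0.593, edgeR adjusted p 0.179) rested on KO 2, since without that library it was 0.29, while without KO 1 it was 2.68 and was called (edgeR adjusted p 0.0163). The counts behind these levels were 14 to 24 in 4 libraries and 131 in KO 2.

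Among the scaffolds Shank2 fell, and 5 others did not pass. Shank2 (ENSMUSG00000037541.21, chromosome 7, 144001928 to 144424494, plus strand) is a Shank protein of PC spines. It was at 313, 233 and 313 CPM in controls and at 187 CPM in both KO mice, below every control. It fell by 0.62 (SE 0.125, edgeR adjusted p 0.0454). Without control 1, control 3, KO 1 or KO 2 it was no longer called, with log2 changes of -0.63 to -0.55 and edgeR adjusted p of 0.166 to 0.191. Shank1 was at 308 to 377 CPM in controls and at 269 and 266 CPM in KO mice, with a log2 change of -0.39 (edgeR adjusted p 0.0898). Shank3 had a log2 change of -0.07. Homer2, at 20.8, 16.6 and 25.9 CPM in controls and at 30.0 and 26.8 CPM in KO mice, had a log2 change of 0.42 (edgeR adjusted p 0.324). Dlg4, which encodes PSD-95, had a log2 change of 0.09. Homer1 had 0.19, and the tables count its long and short forms together.

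**Figure D2:**
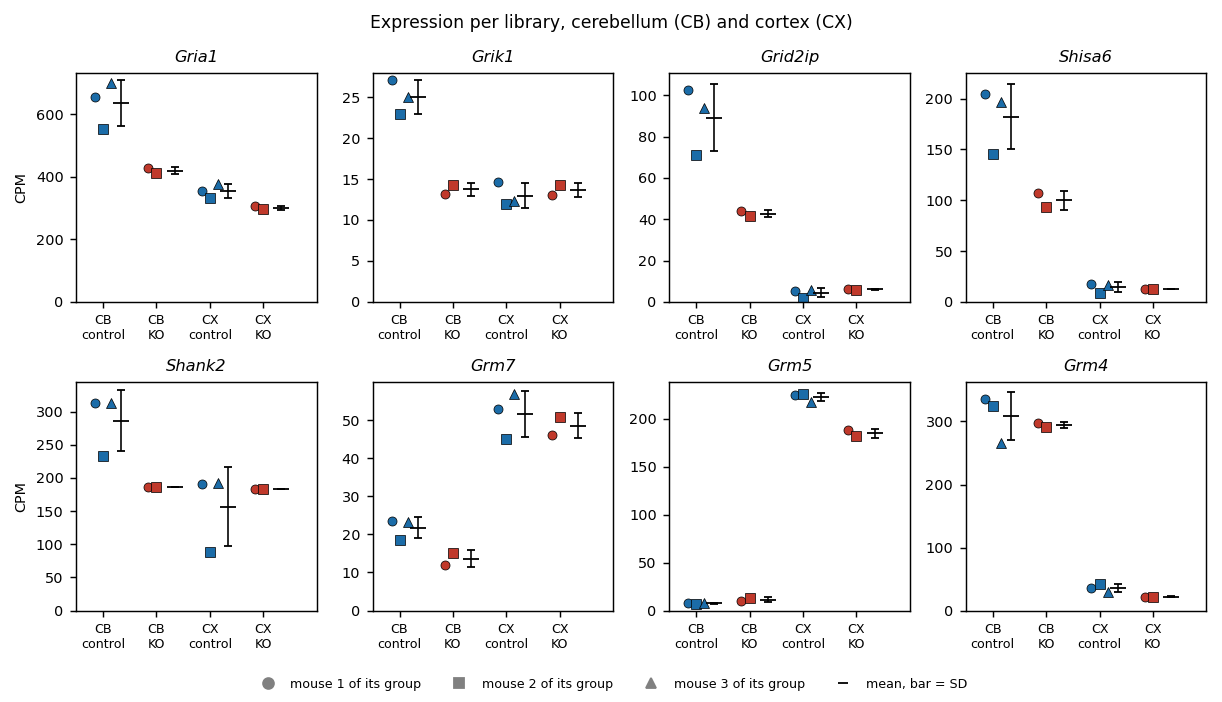
CPM of the 5 genes called in cerebellum and of Grm7, Grm5 and Grm4 in each library, with the mean and SD of each group at its right (n = 3 controls, n = 2 KO). In cerebellum the KO points of Gria1, Grik1, Grid2ip, Shisa6, Shank2 and Grm7 lie below all control points. In cortex Gria1, Grm5 and Grm4 of these 8 separate KO from control libraries.

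PC markers fell together with these genes. All 8 PC markers were called lower, with a median log2 change of -1.19 and a summed level of 7801 to 9531 CPM in control and 3873 to 3962 CPM in KO cerebella, and none was at 0. In bulk tissue, fewer cells of a type and less RNA per cell cannot be told apart. Granule cell markers, 8 in number, held no call and summed to 2802 to 3226 CPM in controls and 2826 to 3284 CPM in KO mice. The 4 unipolar brush and Golgi cell markers, of which 3 were tested, held no call and had a median log2 change of 0.63, with sums of 156 to 182 CPM in controls and 232 to 254 CPM in KO mice that did not overlap. Molecular layer interneuron markers held no call among 6, with sums of 1063 to 1468 CPM and 1211 to 1350 CPM. Bergmann glia markers summed to 1938 to 2177 CPM in controls and 1555 to 1668 CPM in KO mice, with 1 of 5 called lower. Astrocyte markers summed to 2086 to 2270 CPM and 3070.2 to 3094 CPM, with 3 of 7 called higher, and 2 of 8 microglial markers were called higher. The part of these cell types in the receptor results was not tested.

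A further 51 genes of glutamate transmission were followed as a list, of which 49 were tested in cerebellum, with 4 called lower and 2 higher. Homer3, the Homer protein of PC spines, was at 394, 374 and 385 CPM in controls and 199 and 198 CPM in KO mice. It fell by 0.96 (SE 0.068, edgeR adjusted p 0.000467). Dlg2, which encodes PSD-93, and Slc1a6, the PC glutamate transporter EAAT4, fell by 0.56 and 0.58. The AMPA auxiliary subunit Cacng4 was at 27.6 to 33.2 CPM in controls and at 48.9 and 44.8 CPM in KO mice. It rose by 0.64 on the log2 scale (SE 0.098, edgeR adjusted p 0.0140). Glul, the glial glutamine synthetase, rose by 0.77. By list, 1 of 12 auxiliary proteins, 2 of 26 scaffolds and organizers and 2 of 8 genes of release, uptake and synthesis were called.

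The fall of Gria1 also moved the make-up of the AMPA family, taken as shares of summed CPM per kb. Gria1 held 44.0% ± 1.49 (SD, n = 3) in control cerebella and 37.9% ± 1.04 (SD, n = 2) in KO cerebella. Gria4 held 38.1% ± 1.08 and 42.6% ± 2.03, and Gria2 held 11.3% ± 0.670 and 12.7% ± 0.530, with the same numbers of mice. The summed AMPA level was 239 ± 20.2 CPM per kb in controls and 184 ± 10.1 CPM per kb in KO mice. Among kainate subunits, Grik1 held 9.31% ± 0.360 in controls and 4.93% ± 0.50 in KO mice. Within the GluN2 family, Grin2c held 85.2% ± 2.87 in control and 82.9% ± 0.250 in KO cerebella. These shares depend on annotated exonic length and are given as descriptions, with no test.

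In cortex none of the 38 genes was called by edgeR, beside 0% of all tested genes. Snx14 itself was not called there (log2 change -1.36, edgeR adjusted p 0.754), although its KO and control libraries did not overlap. The lack of a call in this fit thus does not show that a level is unchanged. Of the 38 genes, 7 had an unadjusted p under 0.05, beside 5.93% of all genes, all 7 with lower values. DESeq2 called 1 of the 38, Grm4, beside 0.255% of all genes. For 10 of the 38 genes, 26.3%, the KO and control libraries did not overlap, beside 24.5% of all genes. Grm4 had the lowest p of the 38. It was at 36.2, 42.2 and 30.0 CPM in controls and at 21.1 and 22.1 CPM in KO mice, below every control. Its log2 change was -0.73 (SE 0.157, edgeR adjusted p 0.754). Without cortex control 2 it was -0.60 and was called (edgeR adjusted p 0.0307), and DESeq2 with all libraries gave an adjusted p of 0.0323.

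All 6 auxiliary subunits had lower mean values in the KO cortex, with log2 changes from -0.41 to -0.03. The direction turned for 2 of them when 1 library was left out, since Cnih3 then ran from -0.19 to 0.09 and Shisa6 from -0.38 to 0.06. Neto2, an auxiliary subunit of kainate receptors, was at 81.9, 103 and 81.7 CPM in controls and at 71.6 and 60.7 CPM in KO mice. Its relative Neto1 was at 131, 163 and 133 CPM in controls and at 111 and 107 CPM in KO mice. Control 2 was the highest library for both. The log2 changes were -0.41 for Neto2 (SE 0.137, edgeR adjusted p 0.773) and -0.37 for Neto1 (SE 0.120, edgeR adjusted p 0.768). Grm5 was at 225, 226 and 218 CPM in controls and 188 and 182 CPM in KO mice, without overlap, and its log2 change of -0.26 did not pass (edgeR adjusted p 0.792). The AMPA and NMDA subunits had log2 changes between -0.23 and 0.29 in cortex. Gria1 was at 355, 334 and 379 CPM in controls and 305 and 297 CPM in KO mice, without overlap, and its log2 change was -0.23 (edgeR adjusted p 0.852). Gria2 was at 788 to 841 CPM in controls and 815 to 831 CPM in KO mice. In the opposite direction, the smallest p-values were those of Grin2c, Cbln4 and Shank1, and none passed. Grin2c was at 70.1, 44.7 and 55.8 CPM in controls and at 70.2 and 67.7 CPM in KO mice, with a log2 change of 0.29 (SE 0.170, edgeR adjusted p 0.886). Cbln4 was at 16.8, 7.401 and 19.1 CPM in controls and at 21.6 and 17.7 CPM in KO mice, with a log2 change of 0.47 (SE 0.347, edgeR adjusted p 0.893). Shank1 was at 662, 301 and 646 CPM in controls and at 684 and 687 CPM in KO mice, with a log2 change of 0.37 (SE 0.297, edgeR adjusted p 0.895). Control 2 was the lowest library for all 3, and without it the log2 changes were 0.15 for Grin2c, 0.15 for Cbln4 and 0.08 for Shank1.

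Cortex control 2 was the highest or the lowest of the 5 cortex libraries for 30 of the 38 genes, which is 78.9%, beside 62.8% of all tested genes. It was the lowest for 22 and the highest for 8. Shank1, a scaffold of excitatory spines, was at 301 CPM there and at 646 to 687 CPM in the other 4 libraries. Shank2 was at 88.7 CPM against 184 to 192 CPM, and Homer2 at 32.1 CPM against 69.7 to 78.8 CPM. Grm4 was 154% and Neto2 139% of the mean of the other libraries. In this library 6 oligodendrocyte markers summed to 8723 CPM, against 4723 to 5192 CPM in the other cortex libraries. The 8 striatal neuron markers summed to 3728 CPM in it, 1706 and 1535 CPM in controls 1 and 3, and 967 and 543 CPM in KO 1 and KO 2. All 8 striatal markers had lower values in KO mice, with a median log2 change of -1.72 and no call, and none was at 0. The part of tissue make-up in the cortex values of these genes was not tested.

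**Figure D3:**
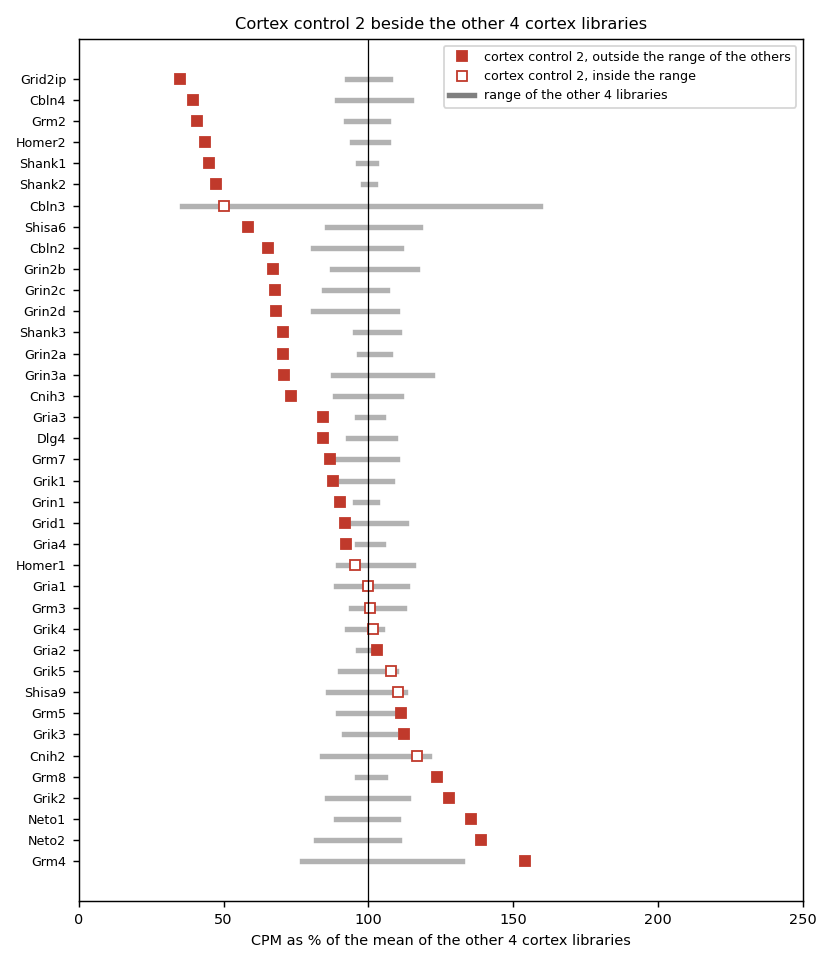
CPM of each gene in cortex control 2 as a percentage of the mean of the other 4 cortex libraries (squares), with the range of those libraries as grey bars. Filled squares lie outside that range, 22 of them below and 8 above, from 34.9% for Grid2ip to 154% for Grm4.

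The difference between the KO effects in cerebellum and cortex was tested for all 38 genes, and none was called, beside 0.102% of all genes, while 12 had an unadjusted p under 0.05, beside 8.28% of all genes. This fit did not use the animal. With the animal as a block, since each mouse gave both tissues, 4 were called, beside 0.621% of all genes. DESeq2 without the block called 3, Grik1, Grm5 and Neto1, beside 1.07% of all genes. Grid2ip, which had log2 changes of -1.07 in cerebellum and 0.46 in cortex, differed by -1.52 (edgeR adjusted p 0.286) without and by -1.55 (edgeR adjusted p 0.0238) with the block. Grik1, with -0.87 and 0.09, differed by -0.94 in both fits (edgeR adjusted p 0.114 without and 0.0238 with the block). Grm5, with 0.61 and -0.26, differed by 0.89 in both fits (edgeR adjusted p 0.0780 without and 0.0330 with the block). Without the block it was also called when cortex control 2 was left out (0.86, edgeR adjusted p 0.0353). Without cerebellum KO 1 the difference was 1.06 and rested on KO 2 alone in that tissue, at 13.0 CPM beside 9.94 CPM in KO 1. Grm4, with -0.07 and -0.73, differed by 0.68 without and 0.67 with the block (edgeR adjusted p 0.293 and 0.0379). For Gria1, with -0.61 and -0.23, the difference was -0.36 (edgeR adjusted p 0.530), so its fall in cerebellum was not shown to be particular to that tissue. The same holds for Shisa6 and Shank2, whose differences of -0.73 and -0.85 were not called. Grm7 differed by -0.59 (edgeR adjusted p 0.402). Neto1, with 0.63 and -0.37, differed by 1.04 (edgeR adjusted p 0.228). Of the further 51 glutamate genes, only Homer3 was called here, with a difference of -0.80 (edgeR adjusted p 0.0241).

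The controls show how far the receptor sets of both tissues differ. In cerebellum against cortex 31 of the 38 genes were called, 81.6%, beside 40.5% of all genes. In cerebellum 9 were higher, beside 19.1% of all genes, and 22 were lower, beside 21.5%. The median log2 difference was -0.67 over the 38 genes and 0.02 over all genes. Groups did not overlap for 32 of the 38, beside 61.8% of all genes. Of the 5 genes that fell in the KO cerebellum, all 5 were called higher in control cerebellum than in control cortex, beside 19.1% of all genes. The 8 PC markers, all called lower in the KO cerebellum, were also all called higher. The share was not taken over all genes that fell, so the pattern is not shown to be particular to receptor genes. The KO and tissue comparisons use the same cerebellum controls, so they are not independent.

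**Figure D4:**
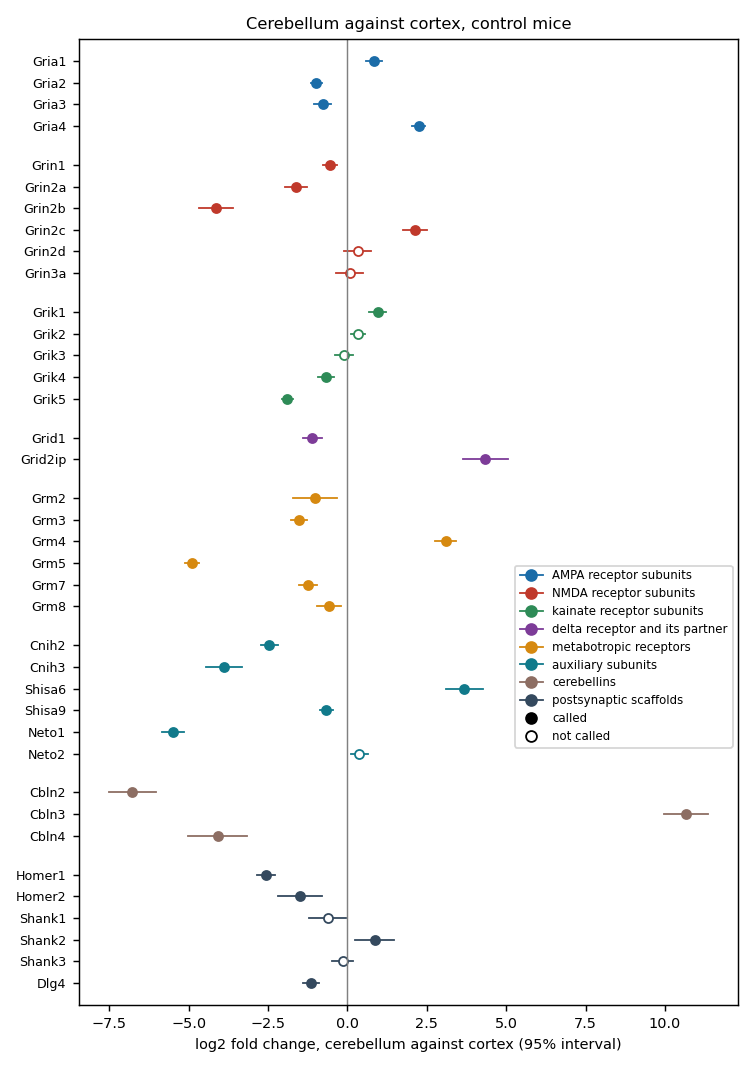
Log2 fold change of each gene in cerebellum against cortex of the 3 control mice with its 95% interval, coloured by receptor class. Filled points mark the 31 genes called, and the values run from -6.77 for Cbln2 to 10.67 for Cbln3.

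AMPA subunits divided evenly between the tissues, with 2 higher and 2 lower in cerebellum. Gria4 was at 582, 537 and 602 CPM in cerebellum and at 121, 113 and 128 CPM in cortex, a log2 difference of 2.25 (SE 0.092, edgeR adjusted p 2.47e-07). Gria1 was higher by 0.84. Gria2 was at 404 to 425 CPM in cerebellum and 788 to 841 CPM in cortex, a log2 difference of -0.98 (SE 0.080, edgeR adjusted p 1.42e-05), and Gria3 was at -0.78. Per kb of exon, the order in control cerebellum was Gria1 (105 ± 12.3 CPM per kb, SD, n = 3), Gria4 (91.0 ± 5.25), Gria2 (26.9 ± 0.759) and Gria3 (16.0 ± 2.03). The levels of Gria1 and Gria4 met within their SD there, and the others were apart. In control cortex Gria1 (58.9 ± 3.71 CPM per kb) and Gria2 (52.7 ± 1.80) led, above Gria3 (27.4 ± 3.03) and Gria4 (19.1 ± 1.25). These orders depend on annotated exonic length, which was 6.04 kb for Gria1 and 15.5 kb for Gria2. Before division by length, mean CPM in control cortex was 356 for Gria1 and 820 for Gria2.

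Among NMDA subunits the GluN2 genes carried the contrast. Grin2c was at 246, 285 and 221 CPM in cerebellum and at 70.1, 44.7 and 55.8 CPM in cortex, a log2 difference of 2.14 (SE 0.166, edgeR adjusted p 1.06e-05). Grin2b was at 24.9, 17.1 and 24.8 CPM in cerebellum and at 421, 274 and 476 CPM in cortex, a log2 difference of -4.14 (SE 0.239, edgeR adjusted p 1.79e-06). These groups are far apart, with cortex control 2 the lowest cortex value of both. Grin2a was lower in cerebellum by 1.61 and Grin1 by 0.55, while Grin2d and Grin3a were not called. As shares of the GluN2 family per kb, Grin2c held 85.2% ± 2.87 (SD, n = 3) in control cerebellum and 27.1% ± 3.36 in control cortex. Grin2b held 1.56% ± 0.430 and 37.2% ± 2.73, and Grin2a 6.80% ± 0.850 and 28.7% ± 1.48. Annotated exonic length was 5.04 kb for Grin2c and 24.8 kb for Grin2b, and the size of these shares depends on it.

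**Figure D5:**
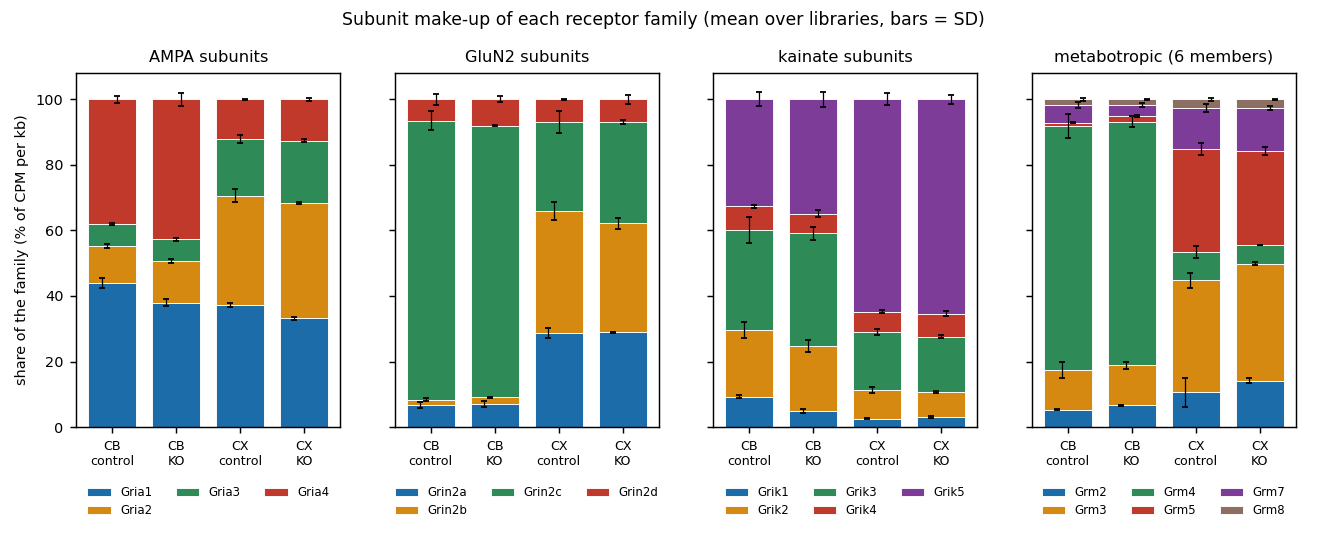
Share of each subunit in its family, in percent of the family's summed CPM per kb, as the mean over libraries of cerebellum (CB) and cortex (CX), with the SD of the share of each segment drawn at its upper edge (n = 3 controls, n = 2 KO). Gria4, Grin2c and Grm4 take larger shares in cerebellum, and Gria2, Grin2b, Grik5 and Grm5 in cortex.

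Of the kainate subunits, Grik1 was higher in cerebellum by 0.95 (SE 0.120, edgeR adjusted p 0.000205), while Grik5 was lower by 1.89 (SE 0.075, edgeR adjusted p 2.10e-07). Grik5 stood at 66.6, 68.0 and 67.3 CPM in cerebellum and at 258, 254 and 233 CPM in cortex, where it made up 64.8% ± 1.83 (SD, n = 3) of the family per kb. Grik4 was lower by 0.68, and Grik2 and Grik3 were not called, with log2 differences of 0.33 and -0.10. In the delta group Grid2ip was higher by 4.35 (SE 0.315, edgeR adjusted p 6.92e-06), at 103, 70.9 and 93.9 CPM in cerebellum and at 5.396, 2.03 and 5.90 CPM in cortex. Grid1 went the other way, at 32.9, 24.99 and 33.3 CPM in cerebellum and at 63.6, 59.5 and 73.2 CPM in cortex, with a log2 difference of -1.11 (SE 0.131, edgeR adjusted p 0.000134).

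Metabotropic receptors were mostly cortical, with 5 of 6 lower in cerebellum. Grm4 was the exception, at 336, 325 and 265 CPM in cerebellum and at 36.2, 42.2 and 30.0 CPM in cortex. Its log2 difference was 3.09 (SE 0.145, edgeR adjusted p 5.28e-07), and it held 74.4% ± 3.75 (SD, n = 3) of the summed level of the 6 receptors per kb in cerebellum. Grm5 was at 7.94, 6.76 and 7.84 CPM in cerebellum and at 225, 226 and 218 CPM in cortex, a log2 difference of -4.89 (SE 0.094, edgeR adjusted p 8.16e-09). Grm5 thus had its highest cerebellar value, 13.0 CPM in KO 2, far under any cortex value. The remaining 4, Grm2, Grm3, Grm7 and Grm8, were lower by 0.59 to 1.53. For Grm2 the groups overlapped through cortex control 2, at 18.2 CPM. Its call was lost without control 1 (edgeR adjusted p 0.146) or control 3 (edgeR adjusted p 0.181), and that of Grm8 without control 1 or control 2.

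Auxiliary subunits split by family member. Shisa6 was higher in cerebellum by 3.68 (SE 0.254, edgeR adjusted p 5.12e-06), at 205, 145 and 197 CPM against 17.7, 8.77 and 16.5 CPM. Neto1 was lower by 5.49 (SE 0.148, edgeR adjusted p 3.78e-08), at 3.60, 2.64 and 3.31 CPM against 131, 163 and 133 CPM, whereas its relative Neto2 had a log2 difference of 0.37 and was not called. The cornichons Cnih2 and Cnih3, which carry AMPA receptors out of the endoplasmic reticulum, were lower by 2.46 and 3.88, and Shisa9 by 0.66. Per kb, Cnih2 was at 119 ± 15.9 CPM per kb in control cortex and 21.8 ± 1.45 CPM per kb in control cerebellum (SD, n = 3).

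The cerebellins gave the widest contrast of all. Cbln3 was at 1219.6, 1294 and 1069 CPM in control cerebella and at 0.360, 0.507 and 1.35 CPM in control cortices, so it was close to the limit of detection in cortex. Its counts summed to 75078 and 38, a 1661-fold difference after division by library size (95% counting interval 1210.1 to 2348), and the fitted log2 difference was 10.67 (SE 0.304, edgeR adjusted p 4.73e-08). Cbln2 was at 0.420, 0.417 and 0.153 CPM in cerebellum and at 40.5, 26.3 and 44.7 CPM in cortex, with summed counts of 21 and 1920. Its log2 difference was -6.77 (SE 0.327, edgeR adjusted p 6.19e-07). Cbln4 was lower in cerebellum by 4.08 (SE 0.407, edgeR adjusted p 4.84e-05). Cbln1, the partner of Cbln3 and not among the 38, was higher in cerebellum by 6.61.

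Of the scaffolds, Shank2 was higher in cerebellum by 0.87 (SE 0.268, edgeR adjusted p 0.0238), and Homer1, Homer2 and Dlg4 were lower by 2.56, 1.49 and 1.15. The call of Shank2 was lost without control 1 (edgeR adjusted p 0.0840) and without control 3 (edgeR adjusted p 0.0812). Homer1 was at 42.3, 33.0 and 42.8 CPM in cerebellum and at 229, 211 and 255 CPM in cortex (SE 0.125, edgeR adjusted p 6.62e-07). Shank1 had a log2 difference of -0.63 (edgeR adjusted p 0.0724), and with the animal as a block it was -0.55 and called (edgeR adjusted p 0.0103). Without control 2 it was -0.85 (edgeR adjusted p 1.04e-08). Shank3 was at 208 to 220.1 CPM in cerebellum and 182 to 284 CPM in cortex, with a log2 difference of -0.15.

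Sequences upstream of the start are printed for 3 genes that stand for these patterns, Grid2ip (lower in KO cerebellum), Grin2c (higher in cerebellum) and Cbln4 (higher in cortex). RefSeq promoter entries on GRCm38.p6 were matched by symbol for 23 of the 38 genes, and the entries shown are the 250 bases before the start in the direction of transcription. Capitals mark AGGTCA, a site bound by ROR and other nuclear receptors, which was searched on both strands and lies in 14.0% of all 32851 promoters of this length. Further motifs searched on both strands were the E-box CAGATG, held by 14.4% of promoters, the E-box CAGCTG, held by 13.0%, and the core promoter motif TATAAA, held by 12.4%.
Grid2ip (chr5:143363663-143363912, plus strand): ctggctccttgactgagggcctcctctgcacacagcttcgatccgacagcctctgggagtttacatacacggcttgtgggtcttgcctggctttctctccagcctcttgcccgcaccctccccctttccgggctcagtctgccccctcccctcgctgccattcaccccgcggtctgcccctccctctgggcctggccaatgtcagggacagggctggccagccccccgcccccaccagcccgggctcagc
Grin2c (chr11:115267244-115267493, minus strand): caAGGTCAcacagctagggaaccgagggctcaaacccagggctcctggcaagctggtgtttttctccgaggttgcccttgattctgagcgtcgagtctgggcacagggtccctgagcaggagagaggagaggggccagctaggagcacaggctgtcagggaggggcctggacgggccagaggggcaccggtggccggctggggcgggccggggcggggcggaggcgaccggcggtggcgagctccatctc
Cbln4 (chr2:172043467-172043716, minus strand): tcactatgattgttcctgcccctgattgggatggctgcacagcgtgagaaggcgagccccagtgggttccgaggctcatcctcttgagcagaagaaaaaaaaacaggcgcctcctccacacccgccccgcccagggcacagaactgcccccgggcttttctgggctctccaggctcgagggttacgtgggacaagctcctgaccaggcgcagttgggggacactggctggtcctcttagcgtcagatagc

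Grin2c holds 1 AGGTCA, and the other printed sequences hold none of these motifs in this window. Among the entries not printed, an entry each of Dlg4 and Homer1 also holds AGGTCA, and both genes were lower in cerebellum than in cortex. The GC content was 67.6% for Grid2ip, 68.8% for Grin2c and 60.8% for Cbln4, beside a median of 52.4% over all promoters. The start used for Grid2ip lies inside the annotated gene, whose longest transcript begins upstream at 143357338. A match describes letters in the window and is not a measured binding site.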

How the data were processed

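The authors counted read pairs over the exons of each gene with featureCounts 2.0.1, per the file headers, after trimming and STAR alignment to GRCm38 as their methods state. The deposited values are raw counts, 1 table per library, without normalization or pooling. Strand was not used in counting although the libraries keep strand, and a pair overlapping several genes was counted for each. Entries without a mouse gene identifier, 0.160% to 0.926% of counts in a library, were left out, and symbols came from GENCODE M21.

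Genes with enough counts were kept by filterByExpr (minimum 10), libraries were scaled by TMM factors, and edgeR 4.0.16 in R 4.3.3 fitted each comparison with its quasi-likelihood F test, without a block. P-values were adjusted by Benjamini-Hochberg over all tested genes, and the tissue difference of the KO effect was an interaction contrast called at an adjusted p under 0.05. The standard error (SE) is the log2 change divided by the root of F. CPM per kb used the exonic length in the tables. Libraries totalled 16088310 to 22975355 gene counts, and the biological coefficient of variation was 0.121 in cerebellum and 0.141 in cortex, so animals more than counting set the error of well expressed genes. The mouse numbers in the sample titles pair the 2 tissues, whereas equal numbers within a tissue named different mice. Deviations of the 2 tissues of a mouse correlated with r of 0.164 to 0.370. Cerebellum control 2 and cortex KO 2, of different mice, reached 0.197, so the correlations alone do not identify the pairs. Alternatives were DESeq2 1.42.0, other scalings, no filter, a block and leaving out each library. The fits were tested on simulated data, with 100 genes changed by 0.8 and 100 by 1.5 on the log2 scale. In cerebellum 81% and 100% of these were recovered, with 23 false calls. In cortex it was 73% and 100%, with 9 false calls. For the difference between tissues it was 44% and 90%, with 11 false calls. Counts were drawn independently for each gene and library, so no simulated library stood apart as cortex control 2 did. The changed genes were also drawn from the better expressed ones. These shares thus do not give the recovery in the real cortex libraries, where Snx14 was not called at a log2 change of -1.36. The genes and lists were chosen with earlier results of these data known. Values in every library are given for genes called in a KO comparison, or otherwise the 3 with the smallest p in a direction, and between tissues for the called gene with the largest change in each class and direction. Other members were named after their values were seen. Some genes of the wider list are not reported here.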

Additional observations from a re-analysis of the deposited data

Results flagged for a closer look

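Differences between the KO effects in cerebellum and cortex were the results that most call for a closer look. Grm5 had a higher value in both KO cerebella than in every control and a lower value in both KO cortices, a difference of 0.89 on the log2 scale (edgeR adjusted p 0.0780). Neto1 showed the same opposed pattern, with a difference of 1.04 (edgeR adjusted p 0.228), and in cerebellum it rested on 2.64 to 6.13 CPM. Shank1 was lower in both KO cerebella and higher in both KO cortices than in the controls of its tissue, with a difference of -0.73 (edgeR adjusted p 0.652). Its cortex controls were at 662, 301 and 646 CPM, beside 684 and 687 CPM in KO mice. None of these 3 passed by edgeR with all libraries, the filter and no block. DESeq2 without a block called Grm5 and Neto1, and edgeR called all 3 where low counts were not filtered. The unfiltered fit called 599 of 38501 genes and DESeq2 called 221 of 20614. By edgeR with the filter it was 21 of 20614.

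With the animal as a block, 4 of the 38 differences passed by edgeR, beside 0.621% of all genes. They were -1.55 for Grid2ip (adjusted p 0.0238), -0.94 for Grik1 (adjusted p 0.0238), 0.67 for Grm4 (adjusted p 0.0379) and 0.89 for Grm5 (adjusted p 0.0330).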

How the results depend on the processing

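Among 358 recomputed log2 changes of the named genes, 318 kept their direction and their side of the threshold, 20 lost a call and 20 gained one, and none was called in the opposite direction. In cerebellum, where 5 genes were called in KO mice, the count was 8 with no filter, 2 of them higher (Cbln4 and Grm5), and 2 with the replicate block, and between 1 and 6 when a library was left out. It was 1 without control 1, 2 without control 3, 2 without KO 1 and 2 without KO 2, and 6 without control 2. Grid2ip was called each time. Shank2 was lost with upper quartile scaling (edgeR adjusted p 0.0562). In cortex the count went from 0 to 1 (Grm4) with DESeq2, with no filter and without control 2, and was 0 to 1 over the libraries left out. For the difference between tissues it went from 0 to 3 with DESeq2, 10 with no filter and 4 with the replicate block by animal. Over the controls left out it was 0 to 1, the gene being Grm5 without cortex control 2. The tissue count of 31 went from 28 to 32. Calls over all genes moved as well. With no filter they were 842 of 35258 in cerebellum, 380 of 34776 in cortex and 599 of 38501 for the difference between tissues. With the filter and all libraries they were 302 of 19447, 0 of 19202 and 21 of 20614. Without control 2 they were 400 of 19191 in cerebellum and 98 of 18968 in cortex. The causes were not tested.

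Snx14 in cortex was called with DESeq2 (-1.36), with no filter (-1.36) and without control 2 (-1.45, edgeR adjusted p 0.00207), and over the libraries left out it ran from -1.46 to -1.16. In cerebellum it ran from -1.82 to -1.33 and lost its call without KO 1 (-1.57) or KO 2 (-1.76).

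Within a tissue the replicate number pairs different mice, with correlations of -0.04 to 0.11, so the 2 calls left with that replicate block (Grid2ip and Shisa6) do not measure a weaker effect. Pairing by animal, which is real, changed the calls given above and that of Shank1 between tissues, and no other. A fit without a KO library assumes that the lone KO mouse varies like the controls. Levels near or under 1 CPM, as for Cbln2 and Cbln4 in cerebellum, rest on few counts.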

Other observations

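Cerebellum KO 2 was the highest of the 5 cerebellum libraries for several genes that are mainly cortical. Cbln2 had 35 counts there and 3 to 9 in the other 4 libraries, Cbln4 had 131 counts against 14 to 24, Neto1 was at 6.13 CPM against 2.64 to 3.68 CPM, and Grm5 at 13.0 CPM against 6.76 to 9.94 CPM. These genes were chosen after their values were seen.

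In cerebellum the 5 called genes fell by 0.61 to 1.07 on the log2 scale, while the 8 PC markers fell by 0.58 to 1.35. Control 2, a Het mouse, had the lowest control value for all 5 called genes, and the WT control lay within or above the range of the Het controls.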
